A study of Homo sapiens with 44 samples.

Results

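The 4 libraries of the human colon fibroblast line Ccd-18Co stimulated with IL-13 were compared with 4 of the same line left unstimulated. These 8 samples were chosen by their titles, IL13 1 to 4 and unstimulated 1 to 4, out of 44 bulk RNA-seq samples that also held 36 samples from 9 other cytokines (IL-1β, IL-6, IL-17A, IL-22, IFNα, IFNγ, TGF-β1, TNF and OSM, 4 of each). All cultures, unstimulated ones included, had first been kept without serum for 72 h. IL-13 was given at 10 ng/ml, as were the other cytokines except IL-1β, which was given at 0.1 ng/ml. The methods state 24 h of stimulation. Ccd-18Co is a single untransformed line from normal colon, so the replicates share 1 genetic background, and nothing in the labels says that they came from separate cultures. The p-values therefore measure the spread within groups, estimated over all 44 samples in 1 model, and that spread may be technical. In cultures measured in bulk, fewer cells of a type and less RNA per cell cannot be told apart.

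IL-13 is a type 2 cytokine made mainly by T helper cells, innate lymphoid cells and mast cells. It binds a receptor of IL-13Rα1 and IL-4Rα, whose Janus kinases activate the transcription factor STAT6, whereas IL-13Rα2 binds it with high affinity and is usually described as a decoy. In stromal and epithelial cells the pathway is known for inducing eotaxins, the chemokines that attract eosinophils through CCR3, and the matrix protein periostin. SOCS1 and CISH are feedback inhibitors that STAT proteins induce.

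The total count per library was 1219080 to 1786182 with IL-13 and 1365019 to 1725354 without stimulation, so that 3 counts corresponded to 1.47 to 2.66 CPM, counts scaled to the normalized library size. All 12 fibroblast markers were measured. None was at 0 in all 8 libraries, against 7 of 12 epithelial, 10 of 15 leukocyte and 8 of 10 endothelial markers that were. The summed fibroblast markers ran from 29383 to 41389 CPM without stimulation and from 41264 to 52706 CPM with IL-13. Those of smooth muscle, of which DES was at 0, ran from 851 to 2637 and from 1815 to 2674 CPM. Those of leukocytes stayed under 10 CPM in each library. Of the 9 markers of enteric glia and neurons, 5 (S100B and SOX10 among them) were at 0, and the sum ran from 104 to 154 CPM without stimulation and from 176 to 239 CPM with IL-13, most of it UCHL1 (135 ± 24.2 against 212 ± 26.7 CPM, adjusted p = 0.052).

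Across 9513 tested genes, IL-13 moved a small share, and more genes were called lower than higher. With calls defined by an adjusted p below 0.05 together with a log2 fold change beyond 1.5 in either direction, 140 genes (1.47% of those tested) were called. Of these, 26 (0.273%) were higher and 114 (1.2%) were lower with IL-13. Without the fold threshold, 146 genes (1.53%) were higher and 228 (2.4%) lower. When unstimulated replicate 3 was left out, these were 187 and 176, so that excess of falls rested on this library. The median log2 fold change of all genes was -0.05. In CPM, all 4 IL-13 libraries lay above all 4 unstimulated ones for 432 genes (4.54%) and below them for 502 (5.28%). The 26 called rises were all free of overlap between the groups, and so were 99 of the 114 called falls. As a share of the normalized library size, the 26 genes together made up 0.218% without stimulation and 1.8% with IL-13, and the 114 made up 1.12% and 0.213%. The CPM of all tested genes summed to 838278 to 1076750 without stimulation and to 1024870 to 1182260 with IL-13.

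**Figure D1:**
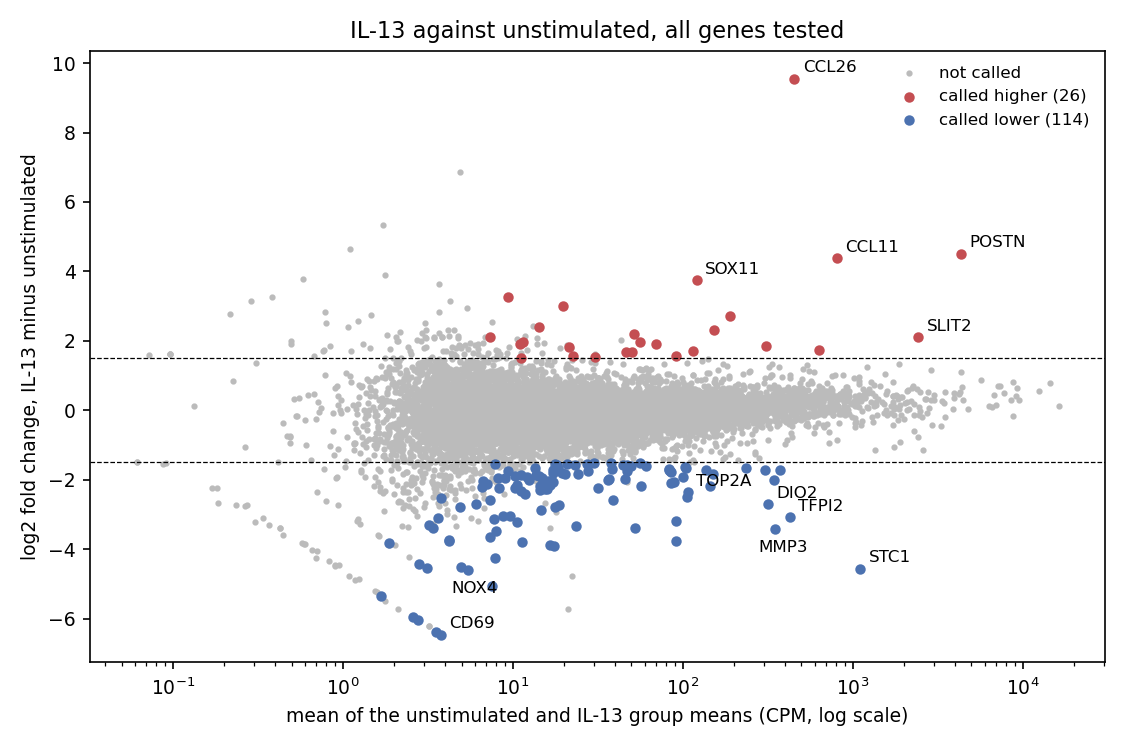
Log2 fold change (IL-13 minus unstimulated, vertical axis) of each tested gene against the mean of its 2 group means in CPM (log scale, horizontal axis). Red points are the 26 genes called higher, blue points the 114 called lower, and dashed lines mark the fold threshold of 1.5 on the log2 scale. CCL26, POSTN, CCL11 and SOX11 are the 4 largest rises, and the abundant falls include STC1, MMP3, TFPI2 and DIO2.

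Eotaxins were among the largest rises. Of 15 type 2 chemokine and alarmin genes, 8 were tested, of which 3 rose and 1 fell, beside 1.53% and 2.4% of all genes. CCL26 (eotaxin-3; chromosome 7, 75769533 to 75789896, minus strand, GENCODE 44 on GRCh38) was at 0.49, 3.65, 0.704 and 0 CPM in unstimulated replicates 1 to 4 and at 587, 520, 1169 and 1357 CPM with IL-13. It was almost silent in the controls, with 7 counts in all against 5110. Its log2 fold change was 9.56 ± 0.61 (SE; edgeR adjusted p = 4.04e-15). CCL11 (eotaxin-1; chromosome 17, 34285742 to 34288334, plus strand) was already expressed, at 91.6, 66.3, 64 and 72.4 CPM, and reached 1393, 1384, 1629 and 1796 CPM with IL-13. The groups were far apart, with a log2 fold change of 4.39 ± 0.33 and an adjusted p of 1.9e-13. The third eotaxin, CCL24, and the T cell and dendritic cell chemokines CCL17, CCL18 and CCL22 had 0 counts in all 8 libraries.

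IL-33 and its receptor moved in opposite directions. IL1RL1, which encodes the IL-33 receptor ST2, was at 3.92, 2.92, 7.04 and 3.42 CPM without stimulation and at 30.5, 35.5, 32.3 and 41.7 CPM with IL-13. It rose by 3.00 ± 0.85 on the log2 scale (adjusted p = 0.0331), without overlap. This call was lost in 5 of 14 alternatives, all of them omissions of 1 library (IL-13 replicate 2 or 4, or unstimulated replicate 1, 2 or 4), with an adjusted p of up to 0.0987. IL1RL1 shares exon positions with IL18R1 on the same strand. IL33, the epithelial and stromal alarmin, was at 117, 88.9, 172 and 176 CPM without stimulation and at 47.1, 20.8, 26.5 and 34.6 CPM with IL-13. All IL-13 libraries lay below the controls, and it fell by 2.09 ± 0.34 on the log2 scale (adjusted p = 3.75e-05). TSLP, a further alarmin, ran from 9.79 to 32.8 CPM without stimulation and from 17 to 19.5 CPM with IL-13 (adjusted p = 0.972). The monocyte chemokines CCL2 (305 ± 103 CPM, SD with n = 4, and 374 ± 37.4 CPM), CCL7 (12.4 ± 11.8 and 9.7 ± 4.76 CPM) and CCL8 (4.24 ± 4.45 and 11.6 ± 3.32 CPM) did not pass the test, with adjusted p of 0.652, 0.875 and 0.215.

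The receptor and signalling genes of IL-4 and IL-13 hardly passed the test, and the member that did was a fall. Of 22 genes 15 were tested, 0 rose and 1 fell, beside 1.53% and 2.4% of all genes. IL13RA1 was at 27.8 ± 10.3 and 39.4 ± 18.3 CPM, and IL4R at 8.65 ± 4.23 and 13.8 ± 2.65 CPM. IL13RA2 was at 68.1, 62.7, 122 and 142 CPM without stimulation and at 157, 88.8, 341 and 406 CPM with IL-13. The IL-13 library of replicate 2 lay within the range of the controls, and the difference of 1.33 ± 0.44 on the log2 scale missed the threshold (adjusted p = 0.0758, but 0.0293 without IL-13 replicate 2). STAT6 had few counts in both groups (5.48 ± 1.73 and 3.45 ± 3.22 CPM). JAK1 (136 ± 21.1 and 110 ± 9.88 CPM), JAK2 (12.5 ± 7.64 and 28.8 ± 16.9 CPM) and STAT3 (26.9 ± 8.74 and 32.6 ± 12.5 CPM) did not pass either, with adjusted p from 0.152 to 0.775.

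Among adaptors and inhibitors of the pathway, IRS2, an insulin receptor substrate that docks to IL-4Rα, was at 6.86, 6.56, 10.6 and 19.8 CPM without stimulation and at 5.31, 1.54, 1.15 and 0.888 CPM with IL-13. It fell by 2.22 ± 0.67 on the log2 scale (adjusted p = 0.0456), a call lost in 7 of 14 alternatives, with an adjusted p of 0.212 without unstimulated replicate 4. Its relative IRS1 was at 28.6 ± 10.7 and 17.8 ± 7.62 CPM (adjusted p = 0.319). BCL6, a repressor that competes for STAT6 sites, was at 4.25 ± 1.84 and 12.7 ± 4.81 CPM without overlap (adjusted p = 0.162). SOCS2 (17.9 ± 13.5 and 17.7 ± 8.49 CPM), SOCS3 (1.11 ± 0.879 and 3.31 ± 2.09 CPM) and the phosphatases PTPN1 (20.1 ± 3.74 and 26.6 ± 10.7 CPM), PTPN2 (19.6 ± 5.5 and 20.6 ± 4.85 CPM) and PTPN11 (179 ± 10.3 and 167 ± 20.1 CPM) did not pass the test.

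SOCS1 and CISH were removed by the filter on low counts and are given by their counts, a choice made after their values were seen. SOCS1 had 0 counts in each unstimulated library and 6, 10, 11 and 2 counts in IL-13 replicates 1 to 4. Against 3 counts over the 4 unstimulated libraries together, this was 10.8-fold higher, a plain ratio without a confidence level. In the fit of all 23518 genes with any count, SOCS1 had an adjusted p of 0.0253. That fit gave smaller p-values to some genes of the main comparison as well, such as IL13RA2 at 1.47e-08 in place of 0.0758. CISH had 0 counts in each unstimulated library and 14, 0, 7 and 4 counts with IL-13. It was 9.27-fold higher by the same ratio and had an adjusted p of 0.0644 in that fit. CISH was thus undetected in IL-13 replicate 2 as in the controls.

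Of 30 secreted and enzyme targets of IL-4 and IL-13, many of them known from airway epithelium and macrophages, 10 were tested. Of these, 5 rose and 0 fell, beside 1.53% and 2.4% of all genes. POSTN (periostin, a matricellular protein; chromosome 13, 37562583 to 37598844, minus strand) was at 280.1, 465, 364 and 355 CPM without stimulation and at 6071, 6169, 10311 and 10767 CPM with IL-13. The groups were far apart, and the log2 fold change was 4.51 ± 0.22 (adjusted p = 3.66e-20). TGM2, a transglutaminase that crosslinks matrix proteins, was at 49, 53.9, 33.8 and 66.3 CPM and at 176, 159, 364 and 316 CPM (log2 fold change 2.32 ± 0.24, adjusted p = 2.56e-09). VCAM1, the adhesion molecule bound by eosinophils and lymphocytes through an α4 integrin, was at 73, 59.8, 37.3 and 43.7 CPM and at 160, 174, 187 and 188 CPM (log2 fold change 1.72 ± 0.29, adjusted p = 6.23e-05). Its IL-13 libraries stood close together. KITLG (stem cell factor, the growth factor of mast cells) rose by 1.33 ± 0.35 on the log2 scale, from 44.5 to 111 CPM (adjusted p = 0.0167), and was not called. The epithelial and macrophage targets CLCA1, ALOX15, SERPINB3, SERPINB4, MRC1, FCER2, NOS2 and SPDEF had 0 counts in all 8 libraries.

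**Figure D2:**
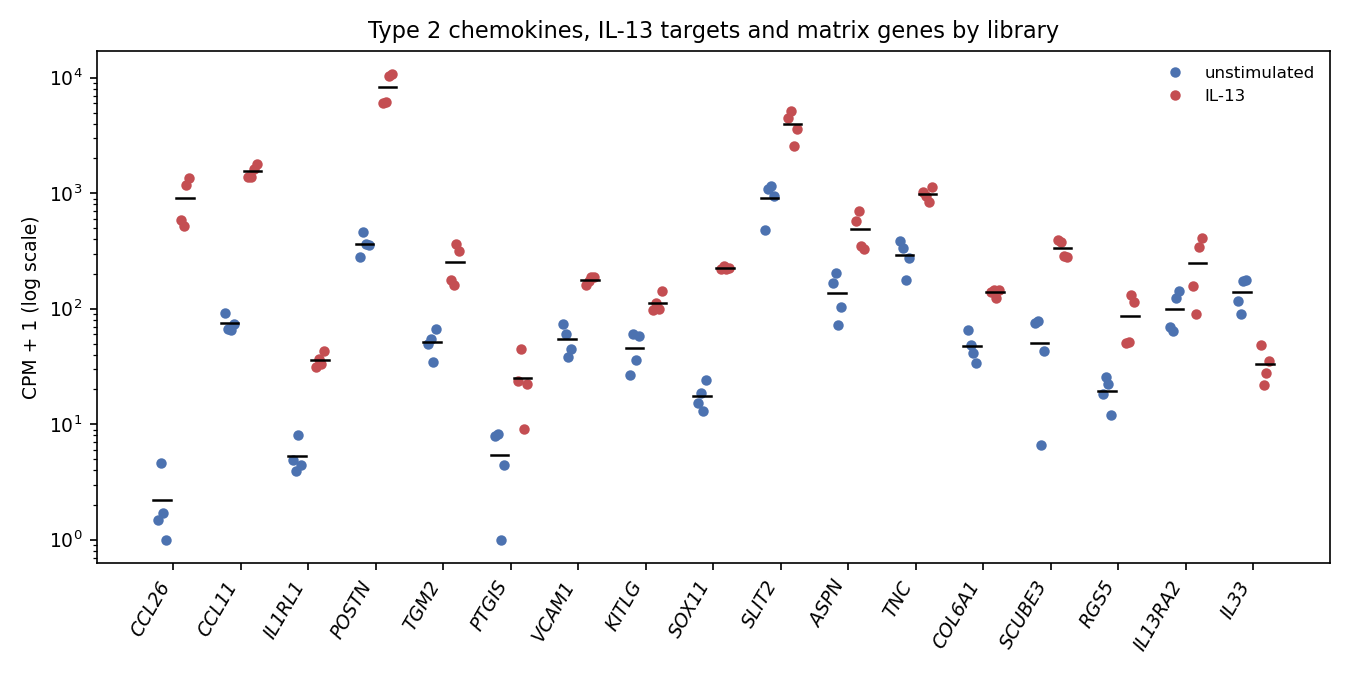
CPM + 1 (log scale, vertical axis) of 17 genes in the 4 unstimulated (blue) and 4 IL-13 (red) libraries. Points are libraries in replicate order and black lines are group means. CCL26 goes from 0 to 3.65 CPM in the controls to 520 CPM or more with IL-13, SOX11 libraries lie close together within each group, and IL33 is the only gene shown that lies lower with IL-13.

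Matrix genes rose in part, beside 1.53% of all genes that rose and 2.4% that fell. Of 19 collagens tested, 2 rose and 0 fell, COL6A1 and COL6A2, chains of the microfibrillar collagen VI. COL6A1 was at 64.6, 47.4, 40.1 and 32.8 CPM without stimulation and at 138, 145, 123 and 144 CPM with IL-13 (log2 fold change 1.56 ± 0.28, adjusted p = 0.000171), and COL6A2 rose by 1.34 ± 0.36 on the log2 scale (adjusted p = 0.0209). Of 23 matricellular and elastic fibre genes 3 rose, TNC, THBS1 and FBLN1. TNC (tenascin-C) was at 384, 335, 177 and 273 CPM and at 1025, 940, 835 and 1135 CPM (log2 fold change 1.75 ± 0.26, adjusted p = 7.67e-06). Thrombospondin-1 (THBS1) went from a mean of 1073 to 2701 CPM (log2 fold change 1.33 ± 0.27, adjusted p = 0.00105). Of 16 proteoglycan and hyaluronan genes, 2 rose and 2 fell. ASPN (asporin, a small leucine-rich proteoglycan) was at 165, 204, 71.1 and 102 CPM and at 571, 697, 349 and 327 CPM (log2 fold change 1.84 ± 0.43, adjusted p = 0.00643), while HAS2, a hyaluronan synthase, fell by 1.21 ± 0.25 on the log2 scale (adjusted p = 0.0015).

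Of 20 collagen crosslinking and hydroxylation enzymes, LOX (lysyl oxidase) rose, from a mean of 307 to 765 CPM (log2 fold change 1.32 ± 0.27, adjusted p = 0.00164), and P4HA3, a subunit of a prolyl hydroxylase, fell to 3 counts over the IL-13 libraries against 53 in the controls. P4HA3 shares exon positions with PPME1 on the other strand. In the contractile list, 2 of 28 tested genes rose and 0 fell, beside 1.53% and 2.4% of all genes. MYLK (myosin light chain kinase) rose by 1.17 ± 0.26 on the log2 scale, from 1780 to 3994 CPM (adjusted p = 0.00406), and TPM2 (a tropomyosin) by 0.70 ± 0.19 (adjusted p = 0.0244). TPM2 missed the threshold in 4 of 14 alternatives, with an adjusted p of 0.0986 without unstimulated replicate 4, and 0 of this list rose with only unstimulated replicates 1 and 2 as controls. ACTA2, the smooth muscle actin of myofibroblasts, was at 853, 636, 254 and 354 CPM without stimulation and at 1179, 1319, 937 and 776 CPM with IL-13. Its groups overlapped and it did not pass the test (log2 fold change 1.00 ± 0.37, adjusted p = 0.135), though it did in the fit of all genes with any count (2.78e-05).

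Further genes rose that belong to other families. SOX11, a transcription factor of neural and mesenchymal development (chromosome 2, 5692384 to 5701385, plus strand), was at 14.2, 17.5, 12 and 23.2 CPM without stimulation and at 221, 232, 221 and 226 CPM with IL-13. Its IL-13 libraries differed little, and the log2 fold change was 3.75 ± 0.41 (adjusted p = 1.09e-08). SLIT2, a secreted guidance ligand of ROBO receptors, was at 475, 1079, 1160 and 954 CPM and at 4450, 5157, 2584 and 3618 CPM (log2 fold change 2.11 ± 0.38, adjusted p = 0.000231). SCUBE3, a secreted EGF-repeat protein, was at 73.9, 77.3, 5.63 and 41.7 CPM and at 390, 374, 283 and 279 CPM (log2 fold change 2.73 ± 0.45, adjusted p = 4.98e-05). RGS5, a regulator of G protein signalling, was at 18.5 ± 5.93 and 85.5 ± 41.5 CPM, and SULF1, an extracellular sulfatase of heparan sulfate, at 28.9 ± 14.5 and 111 ± 33.2 CPM, with log2 fold changes of 2.21 ± 0.41 and 1.92 ± 0.41. SORD (sorbitol dehydrogenase) rose from 1.67 ± 1.6 to 17 ± 4.75 CPM (adjusted p = 0.0169, and 0.08 without unstimulated replicate 4). PTGIS (prostacyclin synthase) was at 6.86, 7.29, 0 and 3.42 CPM and at 22.6, 44, 8.08 and 21.3 CPM. Its adjusted p of 0.0427 passed narrowly and missed the threshold in 9 of 14 alternatives, reaching 0.185 without IL-13 replicate 2. FAM110B (1.98 ± 0.44), TLCD2 (1.82 ± 0.45) and XAF1 (1.55 ± 0.32) rose on the log2 scale too. ABCB10 (1.97 ± 0.59) and CCDC92 (1.92 ± 0.58) each lost the call in 8 of 14 alternatives. The antisense transcript APCDD1L-DT (2.12 ± 0.58) lost it in 7 of 13, with an adjusted p of up to 0.0885, and shares exon positions with APCDD1L, as CCDC92, TGM2, TNC, XAF1 and RHOF do with genes of the other strand. Whether counting used strand is not stated, so such reads may not be told apart.

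The repressed set was larger, with 114 called genes, of which 41 belonged to the lists examined. Their median level was 26.8 CPM without stimulation and 5.97 CPM with IL-13. Of the 114, 24 had more than 100 CPM without stimulation and 4 with IL-13. The cell cycle and mitosis list held 13 of those 41. Of its 40 tested members 18 fell, 0 rose and 13 were called lower, against 2.4% and 1.2% of all genes, and the median log2 fold change was -1.26. TOP2A (topoisomerase IIα, which untangles chromosomes; chromosome 17, 40388525 to 40417896, minus strand) was at 194, 200.5, 144 and 179 CPM without stimulation and at 33.2, 44, 25.4 and 37.3 CPM with IL-13. The groups were far apart (log2 fold change -2.37 ± 0.31, adjusted p = 6.35e-07). CDK1, the kinase that drives entry into mitosis, was at 120.5, 155, 108 and 136 CPM and at 44.5, 33.2, 27.1 and 49.7 CPM (log2 fold change -1.76 ± 0.27, adjusted p = 1.1e-05). CCNB1 (cyclin B1, its partner) was at 68.1, 82.4, 58.4 and 82 CPM and at 5.31, 13.1, 21.4 and 35.5 CPM (log2 fold change -1.97 ± 0.33, adjusted p = 8.89e-05).

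CENPF, a kinetochore protein, fell by 2.19 ± 0.33 on the log2 scale, from 93 to 20.6 CPM (adjusted p = 1.05e-05). RRM2, a subunit of ribonucleotide reductase, fell by 1.77 ± 0.23, from 133 to 38.6 CPM (adjusted p = 5.63e-07). PRC1, which bundles microtubules of the central spindle, fell by 2.73 ± 0.49, from 32.5 to 4.86 CPM (adjusted p = 0.000248). The proliferation marker MKI67 was at 27.9, 29.2, 30.3 and 33.5 CPM and at 5.97, 9.27, 5.77 and 14.2 CPM, with an adjusted p of 0.0143 that rose to 0.0703 without IL-13 replicate 3. KIF11 (the mitotic motor Eg5), the spindle checkpoint genes TTK, BUB1 and BUB1B, CCNA2 (cyclin A2) and UBE2C (a ubiquitin enzyme of the anaphase complex) were called with adjusted p between 0.0122 and 0.0462, and each lost the call in 3 to 8 alternatives. BIRC5, PCNA, RRM1, CDC6 and CCNE2 fell by less than the fold threshold. The G1 cyclins CCND1 (adjusted p = 0.318) and CCND2 (0.383) and the inhibitors CDKN1A (0.446) and CDKN1B (0.932) did not pass. The number of falls on this list was 9 without IL-13 replicate 2 and 12 to 17 without any other library. With only unstimulated replicates 1 and 2 as controls it was 12 and with only 3 and 4 it was 11.

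Beyond the list, called falls included further kinetochore and spindle genes, named after their values were seen, among them DLGAP5 (-3.05), TRIP13 (-3.04), SKA3 (-2.79), HMMR (-2.40), KIF14 (-2.32), NDC80 (-2.24), NUF2 (-2.22), SPC25 (-2.16) and NUSAP1 (-2.08, log2 fold changes). NUSAP1 shares exon positions with OIP5-AS1 and CCNA2 with EXOSC9.

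The promoters of listed cell cycle genes that fell together were searched, since CCAAT boxes and the cell cycle homology element (CHR) are common in genes of mitosis. RefSeq gave promoters for 11 of the 13 called members (GRCh38.p14, the first start listed for a gene). In the 250 bases before the start, on either strand, the letters CCAAT stood in 10 of 11, against 33% of all 27305 promoters and 35.8% of those of tested genes, and TTTGAA in 6 of 11, against 13.6% and 9.23%. Both are shown in capitals in 6 of these promoters, 5′ to 3′ on the gene's strand, with the reverse strand's match written as ATTGG or TTCAAA.
TOP2A, chr17:40417897-40418146, minus strand: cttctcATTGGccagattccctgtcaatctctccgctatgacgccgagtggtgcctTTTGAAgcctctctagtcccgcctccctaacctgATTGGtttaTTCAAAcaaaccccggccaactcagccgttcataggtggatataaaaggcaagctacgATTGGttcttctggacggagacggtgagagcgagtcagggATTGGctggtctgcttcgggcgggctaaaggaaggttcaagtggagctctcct
CDK1, chr10:60778081-60778330, plus strand: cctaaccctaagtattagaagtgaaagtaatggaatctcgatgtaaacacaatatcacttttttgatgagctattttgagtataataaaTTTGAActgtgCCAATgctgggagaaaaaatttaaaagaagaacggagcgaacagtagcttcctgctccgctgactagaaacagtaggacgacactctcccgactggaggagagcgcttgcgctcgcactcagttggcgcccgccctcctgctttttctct
KIF11, chr10:92592880-92593129, plus strand: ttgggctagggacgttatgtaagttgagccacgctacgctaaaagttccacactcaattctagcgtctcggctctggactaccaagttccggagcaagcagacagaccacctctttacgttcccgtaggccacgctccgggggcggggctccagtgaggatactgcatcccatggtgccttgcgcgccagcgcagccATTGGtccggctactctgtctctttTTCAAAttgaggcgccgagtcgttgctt
PRC1, chr15:90994536-90994785, minus strand: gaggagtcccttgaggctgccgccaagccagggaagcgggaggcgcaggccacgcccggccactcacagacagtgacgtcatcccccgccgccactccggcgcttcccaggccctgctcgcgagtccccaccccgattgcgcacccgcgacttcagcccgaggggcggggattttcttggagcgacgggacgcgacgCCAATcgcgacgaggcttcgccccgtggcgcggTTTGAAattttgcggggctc
CCNB1, chr5:69166900-69167149, plus strand: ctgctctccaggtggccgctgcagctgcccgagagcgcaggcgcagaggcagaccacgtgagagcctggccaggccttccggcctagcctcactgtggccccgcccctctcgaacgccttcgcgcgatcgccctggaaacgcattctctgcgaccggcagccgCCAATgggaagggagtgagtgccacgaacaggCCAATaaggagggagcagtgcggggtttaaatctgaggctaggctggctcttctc
CENPF, chr1:214602945-214603194, plus strand: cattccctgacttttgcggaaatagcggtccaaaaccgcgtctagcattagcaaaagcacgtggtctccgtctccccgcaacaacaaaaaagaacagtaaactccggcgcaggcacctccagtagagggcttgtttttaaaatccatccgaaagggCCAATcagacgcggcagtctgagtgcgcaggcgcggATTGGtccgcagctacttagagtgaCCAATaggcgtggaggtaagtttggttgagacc
TOP2A holds 4 matches of CCAAT and 2 of TTTGAA, CDK1, KIF11 and PRC1 hold 1 of each, and CCNB1 and CENPF hold CCAAT alone, 2 and 3 times. Over all called falls with a promoter, 40 of 87 (46%) held CCAAT and 22 of 87 (25.3%) held TTTGAA, which also stood in 4 of 16 promoters (25%) of called rises. The STAT6-type pattern, TTC and GAA with 4 bases between, stood in 2 of 16 promoters of rises (12.5%), those of ASPN and NME1-NME2. It stood in 6 of 87 of falls (6.9%), against 5.35% of all promoters and 4.23% of those of tested genes. The AP-1-type letters TGANTCA stood in 3 of 16 and 6 of 87 (6.6% of all and 3.9% of tested genes). These matches describe sequence and were not tested as binding sites. Uncalled members of the cell cycle list were not compared, so the shares of its called members cannot be tied to their falls.

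Matrix proteases fell with little dependence on any library. Of 28 tested proteases and inhibitors 7 fell and 0 rose, beside 2.4% and 1.53% of all genes. The count of falls stayed at 6 or more when any library was left out. MMP3 (stromelysin-1; chromosome 11, 102835801 to 102843609, minus strand) was at 649, 499, 534 and 861 CPM without stimulation and at 49.1, 20.8, 79.6 and 88.8 CPM with IL-13 (log2 fold change -3.41 ± 0.36, adjusted p = 3.56e-09). MMP1 (interstitial collagenase) was at 526, 445, 604 and 616 CPM and at 108, 74.1, 198 and 170 CPM (log2 fold change -1.99 ± 0.27, adjusted p = 1.02e-06). MMP10 (stromelysin-2) was at 131, 94, 175 and 260 CPM and at 26.6, 6.95, 20.8 and 16.9 CPM (log2 fold change -3.18 ± 0.42, adjusted p = 6.59e-07). None of the 3 had overlapping groups. MMP1 and MMP3 share exon positions with WTAPP1 on the other strand. ADAMTS5, an aggrecanase, fell from 235 ± 59.4 to 65.5 ± 7.18 CPM (log2 fold change -1.84 ± 0.23, adjusted p = 5.16e-07).

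Inflammatory genes of the NF-kB type fell in part, and these falls rested on the controls used. Of 31 tested genes 7 fell and 1, VCAM1, rose, beside 2.4% and 1.53% of all genes. The neutrophil chemokine CXCL8 was at 23, 19.7, 85.1 and 554 CPM in unstimulated replicates 1 to 4 and at 39.8, 0.772, 0 and 8.88 CPM with IL-13. The groups overlapped and unstimulated replicate 4 stood apart. Its log2 fold change of -3.75 ± 0.93 (adjusted p = 0.0113) rested on that library, without which it was -1.74 (adjusted p = 0.376). CXCL3 (2.92 to 107 CPM and 0 to 3.55 CPM) and CXCL1 (28.1 to 166 CPM and 15.4 to 34 CPM) overlapped in the same way, and without that library their log2 fold changes went from -3.89 to -1.93 and from -1.57 to -0.60, and their adjusted p from 0.00867 to 0.374 and from 0.0153 to 0.489. These 2 genes are close paralogs. CXCL5 was at 1.47, 1.46, 18.3 and 38.3 CPM and at 0.664, 0, 0.577 and 0 CPM, 87 counts against 2, a ratio of 39.1 with an exact 95% interval of 10.5 to 328. Its adjusted p of 0.00351 rose to 0.0714 without unstimulated replicate 4. PTGS2 (cyclooxygenase-2) was at 20.6, 43.7, 126 and 193 CPM and at 16.6, 6.95, 5.19 and 7.1 CPM (log2 fold change -3.39 ± 0.75, adjusted p = 0.0039), without overlap. IL11, a cytokine of the IL-6 family, was low throughout, at 6.46 ± 1.1 and 1.08 ± 0.435 CPM (adjusted p = 0.0403). It lost the call in 7 of 13 alternatives, all omissions of 1 library, with an adjusted p of up to 0.14. The count of falls on this list was 2 without unstimulated replicate 4, 2 in the fit of the 8 libraries alone, 0 with only unstimulated replicates 1 and 2 as controls and 7 with only replicates 3 and 4. How far the controls' own spread accounts for these falls was not tested. IL6 (adjusted p = 0.837), NFKBIA (0.618) and SOD2 (0.522) did not pass the test.

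**Figure D3:**
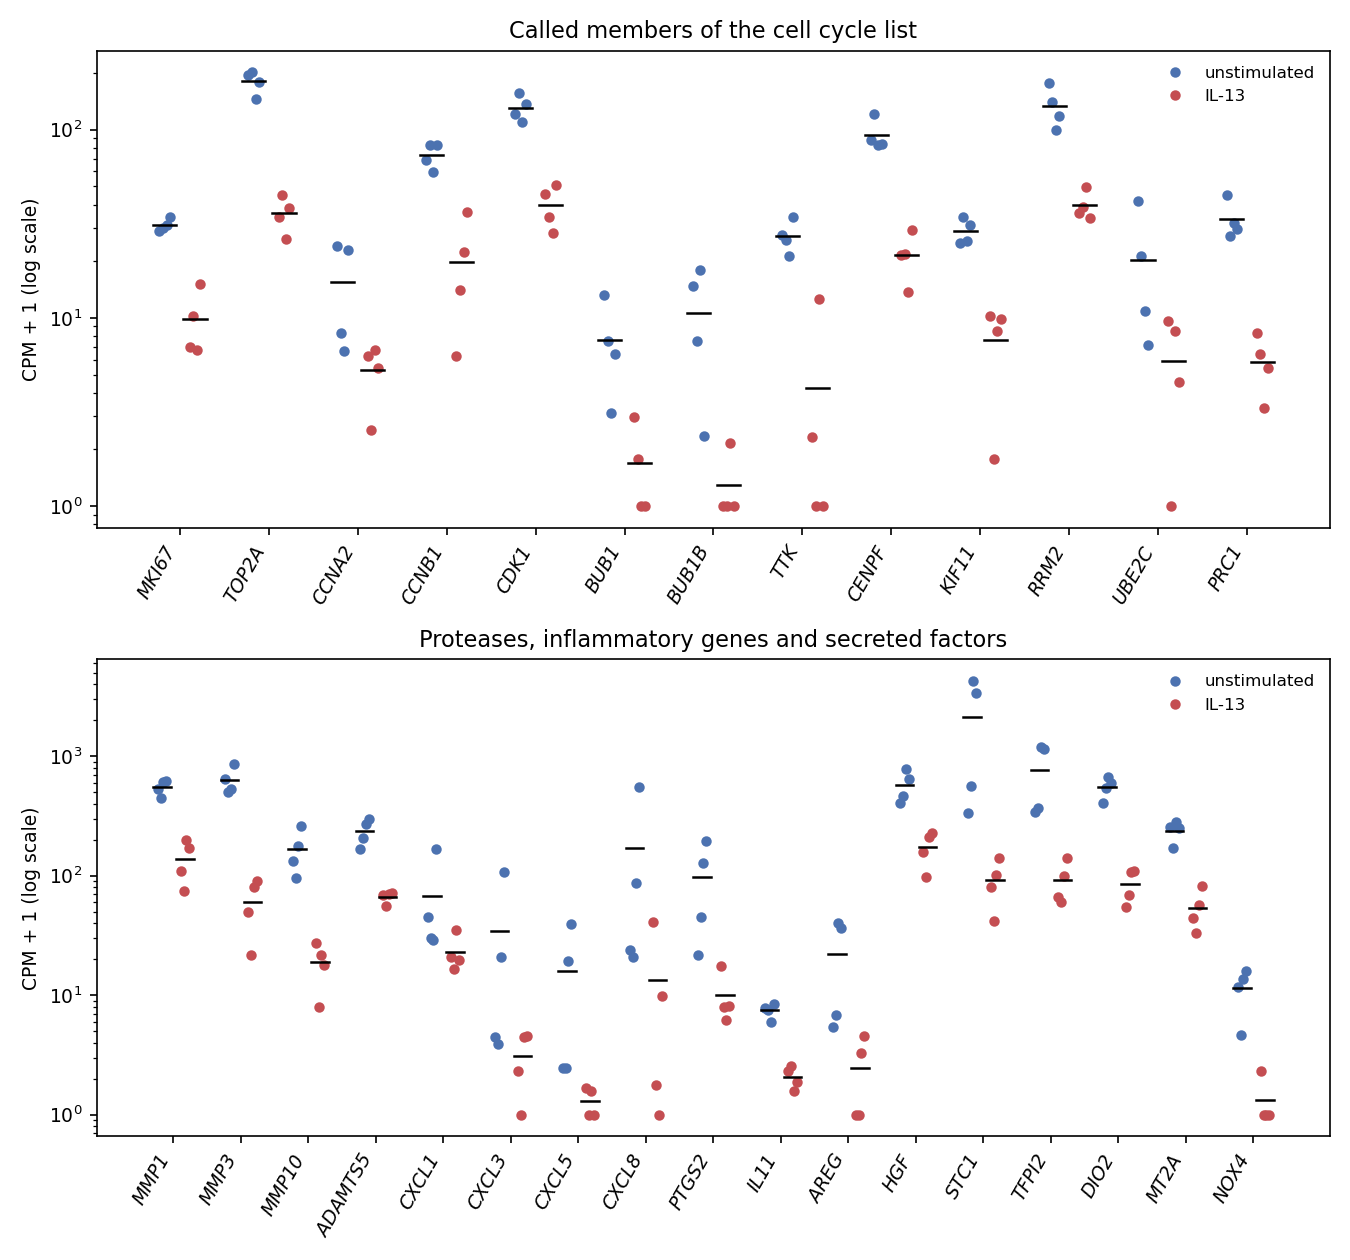
CPM + 1 (log scale, vertical axes) of genes called lower, in the 4 unstimulated (blue) and 4 IL-13 (red) libraries in replicate order, with group means as black lines. In the cell cycle panel TOP2A, CDK1, RRM2 and CENPF are well separated, while in the lower panel the unstimulated libraries of CXCL8, CXCL3, CXCL5, AREG, STC1 and TFPI2 spread widely and those of MMP1, MMP3, DIO2 and MT2A do not.

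Of 36 growth and neurotrophic factors 8 fell and 1 (KITLG) rose, beside 2.4% and 1.53% of all genes. HGF, the ligand of the MET receptor of epithelial cells, was at 407, 468, 780.3 and 648 CPM without stimulation and at 157, 97.3, 212 and 228 CPM with IL-13 (log2 fold change -1.73 ± 0.28, adjusted p = 3.31e-05). IGFBP3, a carrier of insulin-like growth factors, fell from 356 ± 29.2 to 113 ± 21.3 CPM (log2 fold change -1.65 ± 0.23, adjusted p = 1.92e-06). ANGPT1, the ligand of the endothelial receptor TIE2, fell from 156 ± 42.8 to 50.1 ± 12 CPM (log2 fold change -1.63 ± 0.21, adjusted p = 3.88e-07). AREG, an EGF receptor ligand, was at 4.41, 5.83, 39.4 and 35.5 CPM and at 0, 0, 2.31 and 3.55 CPM (adjusted p = 0.0356). It lost the call in 6 of 13 alternatives, all omissions of 1 library, with an adjusted p of up to 0.124. IGFBP5, FGF7, PDGFRA and BDNF fell by less than the fold threshold. The count of falls was 4 without unstimulated replicate 3, 4 without replicate 4, and 5 without IL-13 replicate 2. Among other ligand families, BMP6 fell from 26.8 ± 5.82 to 7.88 ± 4.5 CPM (log2 fold change -1.72 ± 0.37), the BMP antagonist GREM1 fell by 1.00 ± 0.18, and the Wnt inhibitor DKK1 fell from 127 ± 41.2 to 38.3 ± 19.5 CPM (log2 fold change -1.73 ± 0.26, adjusted p = 7.67e-06). These were 2 of 20 BMP genes and 1 of 15 Wnt genes, beside the 2.4% of all genes that fell. BMP6 shares exon positions with TXNDC5 and BLOC1S5-TXNDC5 on the other strand. In the TGF-β list 2 of 20 genes fell, IL11 and NOX4, beside 2.4% of all genes. That count was 0 in the 8 libraries alone. It was 1 with only unstimulated replicates 1 and 2 as controls, and 1 with only 3 and 4.

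Further falls included secreted and metabolic genes. STC1 (stanniocalcin-1, a secreted glycoprotein) was at 337, 557, 4260 and 3357 CPM without stimulation and at 79.7, 40.9, 100.4 and 140 CPM with IL-13. Replicates 1 and 2 of the controls lay far below replicates 3 and 4, and all lay above the IL-13 libraries (log2 fold change -4.56 ± 0.76, adjusted p = 5.89e-05). TFPI2, a protease inhibitor of the Kunitz type, was split in the same way, at 338, 367, 1193 and 1156 CPM, with 65.7, 59.5, 98.7 and 139 CPM in IL-13 libraries (log2 fold change -3.07 ± 0.44, adjusted p = 4.32e-06). DIO2, the deiodinase that activates thyroid hormone, was more even, at 405, 537, 671 and 594 CPM and at 53.8, 67.9, 106 and 109 CPM (log2 fold change -2.71 ± 0.28, adjusted p = 2.9e-09). MT2A, a metallothionein, was at 253, 168, 279 and 251 CPM and at 43.1, 32.4, 56 and 80.8 CPM (log2 fold change -2.17 ± 0.21, adjusted p = 1.02e-09). GNG11, a subunit of G proteins, fell from 467 ± 157 to 142 ± 46.8 CPM (log2 fold change -1.72 ± 0.24, adjusted p = 2.6e-06). PDK4, a kinase that restrains pyruvate dehydrogenase, fell from 43 ± 27.5 to 3.94 ± 4.34 CPM (adjusted p = 0.0004). NR4A2, an early response receptor, fell from 14.8 ± 12.7 to 1.18 ± 1.04 CPM with overlapping groups (adjusted p = 0.0151). It lost the call in 4 of 13 alternatives, all omissions of 1 library, with an adjusted p of up to 0.0836. RAB27B, a GTPase of secretory vesicles, fell from 15.1 ± 5.58 to 0.655 ± 0.831 CPM (adjusted p = 4.44e-05).

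Some receptors, channels and integrins fell as well. Of 33 ion channel and calcium signalling genes 6 fell and 0 rose, beside 2.4% and 1.53% of all genes. TRPA1, a cation channel, was at 115, 141, 174 and 210.4 CPM without stimulation and at 27.2, 37.8, 54.2 and 49.7 CPM with IL-13 (log2 fold change -1.92 ± 0.26, adjusted p = 1.92e-06). EDNRB, an endothelin receptor, was at 22.5, 21.9, 47.8 and 32.8 CPM and was detected in 1 IL-13 library, replicate 3, at 6.93 CPM (adjusted p = 0.00178). BDKRB1, a bradykinin receptor, fell from 26.4 ± 18.7 to 5.61 ± 2 CPM (adjusted p = 0.00461, and 0.0777 without unstimulated replicate 1). TRPA1 and EDNRB share exon positions with the antisense genes MSC-AS1 and OBI1-AS1. Of 31 adhesion genes 3 fell and 2 rose, beside the same shares. ITGA2, the α2 chain of a collagen receptor, fell from 74.5 ± 30.8 to 24.5 ± 8.32 CPM (log2 fold change -1.61 ± 0.31, adjusted p = 0.00075), and ITGA6, the α6 chain of laminin receptors, from 14 ± 2.82 to 1.43 ± 1.89 CPM (log2 fold change -3.13 ± 0.75, adjusted p = 0.00862). NT5E (CD73), a surface enzyme that makes adenosine, fell from 44.8 ± 13.8 to 15 ± 10.8 CPM (adjusted p = 0.0211). This call was lost in 4 of 14 alternatives, with an adjusted p of 0.12 without IL-13 replicate 2. With PDGFRA, NT5E was 1 of the 2 falls among 22 tested genes of the universal fibroblast list, beside 2.4% of all genes. Falls on that list numbered 0 in the 8 libraries alone, 0 with only unstimulated replicates 1 and 2 as controls and 3 with only replicates 3 and 4.

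Some falls reached the limit of detection. CD69, XIRP2, F2RL1, ASF1B and YPEL2 had 0 counts in all IL-13 libraries and 46, 43, 34, 34 and 22 counts over the unstimulated ones. Against 3 counts over the 4 IL-13 libraries these were 13.8-fold, 12.9-fold, 10.2-fold, 10.2-fold and 6.59-fold lower. The exact 95% lower limits of the fold were 10.8, 10, 7.84, 7.84 and 4.92. CD69 was called with an adjusted p of 0.00721, which was 0.0935 without unstimulated replicate 4. ASF1B lost the call in 7 of 12 alternatives, all omissions of 1 library, with an adjusted p of up to 0.102. NOX4, an NADPH oxidase induced by TGF-β, had 2 counts against 67, a ratio of 30.1 with an exact 95% interval of 8.01 to 254. BUB1B had 2 counts against 63 (ratio 28.3, interval 7.52 to 239), RPUSD2 1 against 39 (35, interval 5.93 to 1419), SLC22A4 1 against 23 (20.7, interval 3.36 to 851), RPSAP52 1 against 33 (29.7, interval 4.96 to 1206), P4HA3 3 against 53 (15.9, interval 5.15 to 79.4) and ANAPC1P4 3 against 51 (15.3, interval 4.94 to 76.5). RPSAP52 and ANAPC1P4 are pseudogenes, whose counts may be split with their parent genes. Of these, RPUSD2 lost the call in 6 of 12 alternatives, SLC22A4 and BUB1B in 5 of 13, RPSAP52 in 3 of 13 and ANAPC1P4 in 1 of 13, again by omission of 1 library, with adjusted p of up to 0.122. The intervals cover counting error only.

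The remaining lists had few members past the test, beside 1.53% of all genes that rose and 2.4% that fell. Of 54 interferon-stimulated genes 4 rose (XAF1, IFITM3, GBP1 and B2M) and 0 fell, and 11 lay above the controls without overlap, beside 4.54% of all genes. Of 36 amino acid stress and tRNA synthetase genes 4 rose, among them DDIT3 (121 ± 10.5 to 214 ± 17 CPM, adjusted p = 0.0072), ATF4, MTHFD2 and WARS1 (350 ± 115 to 655 ± 38.4 CPM, adjusted p = 0.0167). The count was 1 without unstimulated replicate 4, and 0 of this list passed with only unstimulated replicates 1 and 2 as controls. Of 32 ER chaperone and folding genes CALR (log2 fold change 0.70 ± 0.16) and OSTC (0.42 ± 0.11) rose. OSTC missed the threshold in 6 of 14 alternatives, with an adjusted p of up to 0.389, CALR had an adjusted p of 0.0528 in the 8 libraries alone, and 0 of the list rose there. Of 32 glycolysis and hypoxia genes HIF1A (-0.63 ± 0.17) and BNIP3L (-0.73 ± 0.18) fell, and 0 passed without IL-13 replicate 1 or 2 or unstimulated replicate 3. Of 26 oxidative stress and metal binding genes 1 rose (GCLM) and 1 fell (MT2A), of 16 prostaglandin genes 1 rose (PTGIS) and 2 fell (PTGS2 and AKR1C1), of 16 guidance genes 1 rose (SLIT2) and 1 fell (SEMA3A), and of 24 early response factors 2 fell (NR4A2 and FOSL1). In edgeR, 0 of 15 complement genes, 0 of 27 cholesterol genes and 0 of 8 homeostatic chemokine genes passed the test, while 4, 3 and 1 had an unadjusted p under 0.05. DESeq2's Wald test called 0 of the first and second lists and 1 of the last. Their members of smallest adjusted p were CD46 (0.0917) and CD59 (0.128), CYP51A1 (0.185) and FDFT1 (0.208), and CXCL12 (0.0774) and ACKR3 (0.385).

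**Figure D4:**
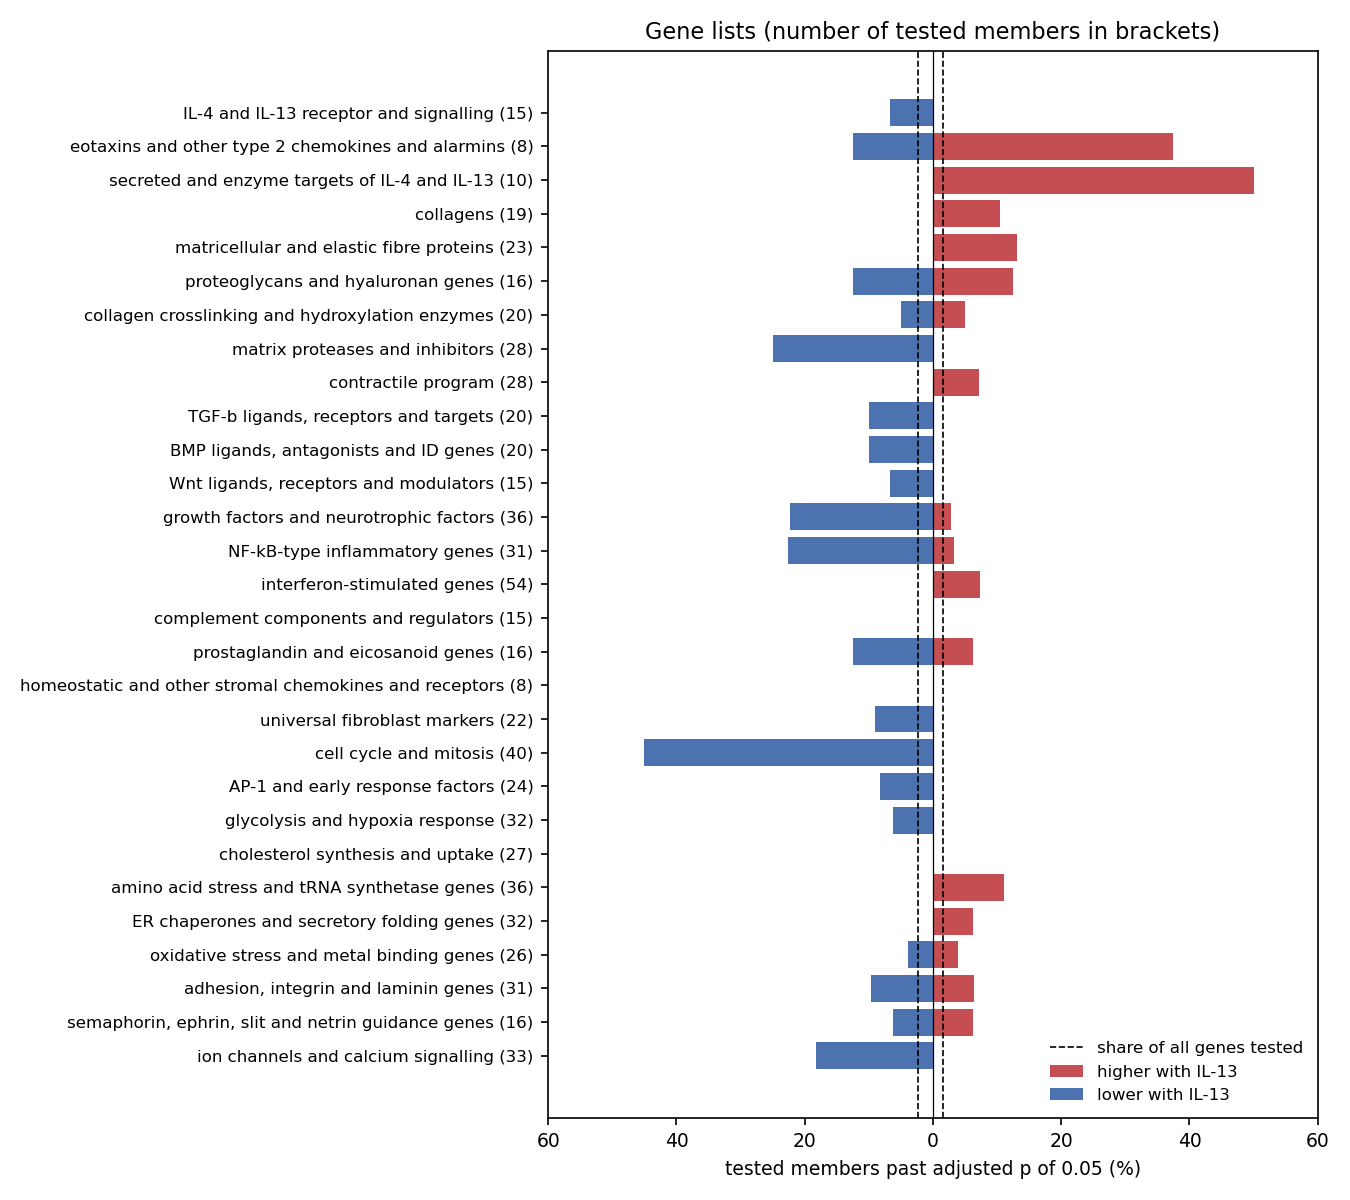
Share of the tested members of each gene list (numbers in brackets) that passed an adjusted p of 0.05, higher with IL-13 to the right (red) and lower to the left (blue), in percent. Dashed lines are the shares of all genes tested, 1.53% and 2.4%. The type 2 target and chemokine lists extend farthest to the right and the cell cycle list farthest to the left.

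The IL-13 libraries were also set against the mean of the 9 other cytokines in the same model, a contrast without the unstimulated libraries that shares the IL-13 libraries with the comparison above. In it 109 genes (1.15%) were called higher and 185 (1.94%) lower with IL-13, or 686 (7.21%) and 570 (5.99%) without the fold threshold. IL-13 was above each of the 9 at an adjusted p under 0.05 for 28 genes (0.294%) and below each for 33 (0.347%). CCL26 was 9.07 ± 0.25 above the others' mean on the log2 scale, and the highest other group, IFNα, was at 13.1 ± 9.46 CPM. CCL11 was 3.30 ± 0.16 above, with IFNα again the highest other group at 709.9 ± 119 CPM. POSTN was 4.41 ± 0.10 above, with TGF-β1 next at 733 ± 90.2 CPM. SOX11 (4.36 ± 0.21), SLIT2 (2.42 ± 0.22), SCUBE3 (3.12 ± 0.25), ASPN (3.62 ± 0.25), COL6A1 (1.51 ± 0.18) and MYLK (1.85 ± 0.16) were also above each of the 9. IL1RL1 was above 3 of the 9 and TGM2 above 7 and below 1.

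Among the repressed genes, MMP1, MMP3, MMP10, IL33, STC1, TFPI2, DIO2, MT2A, NOX4, PTGS2, PDK4, ITGA2, EDNRB and TRPA1 were below each of the 9. MMP3 was at 59.6 ± 30.9 CPM with IL-13, 340 ± 64.3 CPM with OSM, the lowest other group, and 12875 ± 3858 CPM with TNF, the highest. IL33 was at 32.3 ± 11.4 CPM, against 92.3 ± 46.6 CPM with OSM and 1940 ± 341 CPM with TNF. The cell cycle genes did not stand apart in that way. TOP2A was at 35 ± 7.79 CPM with IL-13 and at 15.4 ± 6.2 CPM with IFNα, below 7 of the other cytokines and above 1. RRM2 was below 8 and above 1, CDK1 below 7 and MKI67 below 3. Where a gene was past the threshold against some cytokines and not others, that difference was not tested.

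**Figure D5:**
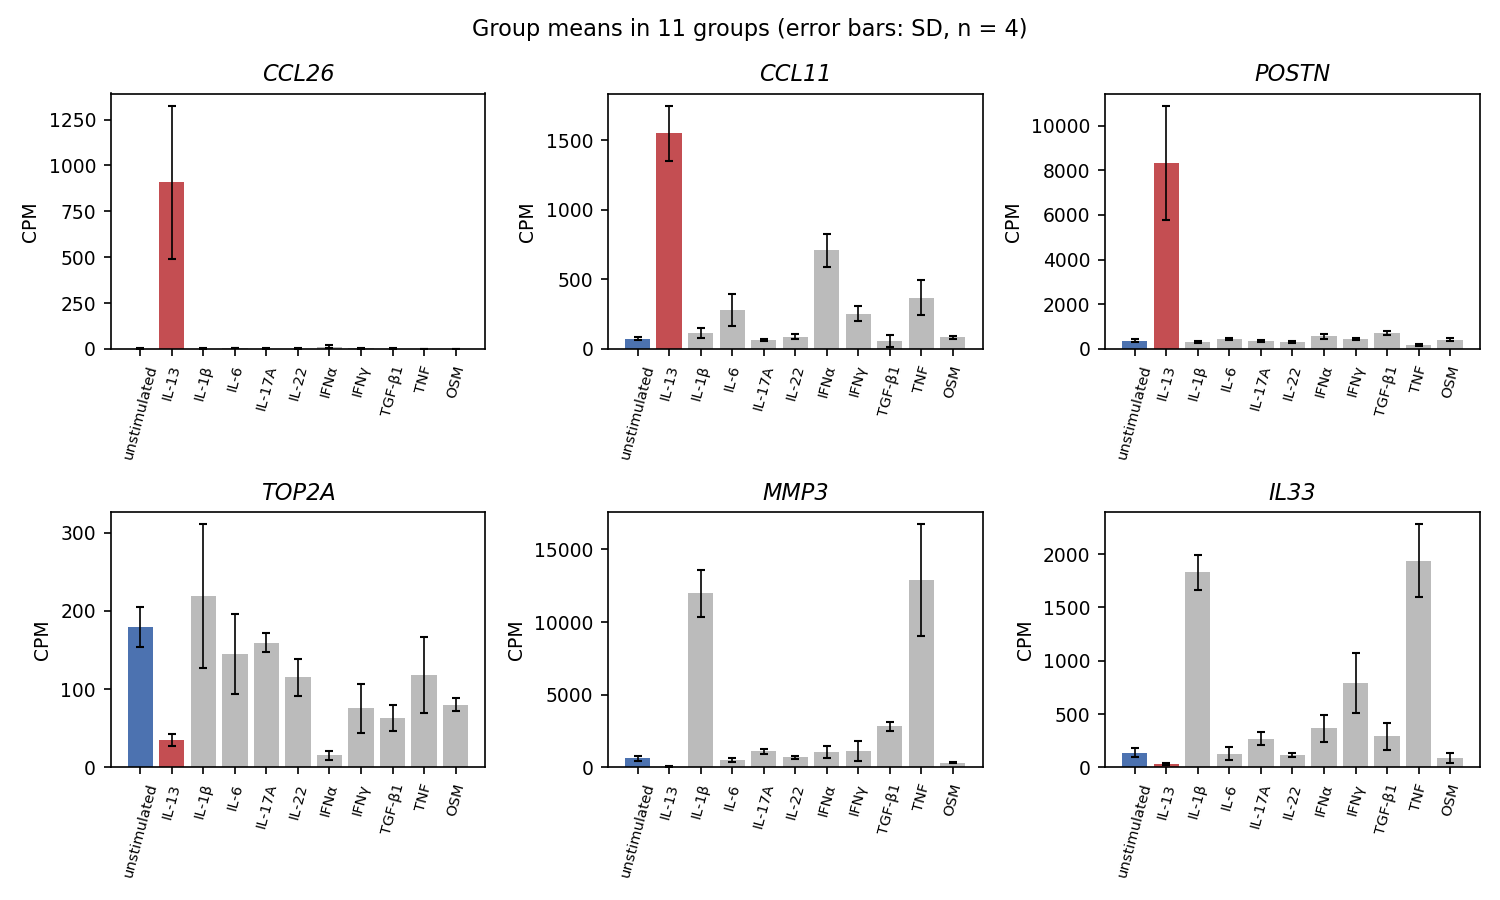
Group means in CPM (vertical axes, starting at 0) of 6 genes in all 11 groups, with error bars of 1 SD (n = 4). IL-13 (red) is the highest bar for CCL26, CCL11 and POSTN and the lowest for MMP3 and IL33, while TOP2A is lower with IFNα (grey) than with IL-13.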

How the data were processed

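Bulk RNA-seq of Ccd-18Co was analysed in 44 libraries of 11 groups, grouped by title, 4 per group. The authors made libraries with a NEBNext Ultra II kit and deposited estimated counts per gene symbol, not scaled for depth. The submitters' processing notes name hg38, FastQC (0.11.9), MultiQC (1.14) and kallisto (0.48.0). Which transcriptome was used, how transcripts were joined to symbols and whether strand was used are not given in the sources used here.

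Counts (5.77% not whole) were rounded. In R (4.3.3), edgeR (4.0.16) kept 9513 of 40663 symbols by filterByExpr, normalized by TMM and fitted all libraries in 1 quasi-likelihood model with 1 coefficient per group. Contrasts were IL-13 minus unstimulated and IL-13 minus the mean of the 9 other cytokines, and p-values were adjusted by Benjamini-Hochberg over all genes. SDs of CPM are over 4 libraries. The study's methods gave the thresholds. In data simulated for the comparison with unstimulated cells (8842 genes tested), 173 of 200 genes changed by 2 on the log2 scale were called, with 8 unchanged ones. The changed genes were drawn from those above 10 CPM without stimulation, and the other cytokine groups were simulated at the unstimulated level. In the data, 9 of 26 called rises and 16 of 114 called falls lay under 10 CPM without stimulation, so the simulation does not cover them. Within a group, chi-square divided by degrees of freedom ran from 4.89 to 25.2 for pairs of replicates, and 0 pairs were identical. Intervals are exact at 95% and cover counting error only. Folds against 3 counts are plain ratios without a confidence level.

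The comparison, gene lists and tests were chosen with earlier results of these data known. Named were all tested members of the lists of IL-13 signalling and type 2 chemokines, the 20 largest rises and 20 largest falls and the 10 largest falls in CPM among called genes without overlap between groups, called members of every list, and up to 2 members of smallest adjusted p of lists with none called. Other list members and genes were named after their values were seen. Alternatives were DESeq2's size factors, DESeq2 (1.42.0, Wald test), all genes with any count, at least 10 counts in 4 libraries, only the libraries compared, a replicate block, leaving out each library, and other fold thresholds. Using only unstimulated replicates 1 and 2, or 3 and 4, and contrasts with each of the 9 cytokines were added after seeing the data. Gene positions are from GENCODE 44 and promoters from RefSeq (GRCh38.p14).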

Additional observations from a re-analysis of the deposited data

Results flagged for a closer look

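Values were picked out where the highest or lowest of 4 libraries of a group stood apart by Dixon's ratio. Of 236 groups of values tested, 22 were picked out, where chance alone gives about 1 in 20, or 11.8, for normally distributed values. CPM of low genes need not follow that distribution, and a gene detected in only 1 library of a group is always picked out. None was a library total.

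Among unstimulated libraries, replicate 4 was high for CXCL8 (554 CPM, the others 19.7 to 85.1), CXCL1 (166 CPM, the others 28.1 to 44.1), CXCL3 (106.6 CPM, the others 2.92 to 19.7) and CD69 (21.2 CPM, the others 1.41 to 4.37). Replicate 2 was high for CENPF (120.3 CPM, the others 81.6 to 86.7) and ITGA6 (18.2 CPM, the others 12.2 to 13) and low for RPUSD2 (2.92 CPM, the others 6.83 to 7.35).

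Among IL-13 libraries, replicate 1 was low for SORD (9.96 CPM, the others 18.5 to 20.1) and high for IRS2 (5.31 CPM, the others 0.888 to 1.54) and PTGS2 (16.6 CPM, the others 5.19 to 7.1). Replicate 2 was high for ANGPT1 (67.9 CPM, the others 42.5 to 46.2) and low for ADAMTS5 (54.8 CPM, the others 67.7 to 70.2). Replicate 3 was high for PTPN11 (196.8 CPM, the others 154 to 159) and TTK (11.5 CPM, the others 0 to 1.33). Further genes were detected in 1 IL-13 library and at 0 in the other 3. In replicate 1 these were P4HA3 (1.99 CPM), NOX4 (1.33 CPM) and SLC22A4 (0.664 CPM), in replicate 2 RPUSD2 (0.772 CPM), and in replicate 3 EDNRB (6.93 CPM), ANAPC1P4 (1.73 CPM), BUB1B (1.15 CPM) and RPSAP52 (0.577 CPM).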

How the results depend on the processing

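The number of genes called against unstimulated cells was 140, and it was 141 with DESeq2's size factors, 174 in DESeq2's Wald test (923 genes had no adjusted p there), 188 with all genes of any count, 141 with at least 10 counts in 4 libraries and 97 in the 8 libraries alone, where 74 were lower and 70 of the 114 called falls were shared. With a fold threshold of 1 on the log2 scale 242 genes were called, 59 higher and 183 lower, and with none 374, 146 higher and 228 lower. Leaving out 1 library gave 101 to 125 called genes, 21 to 26 higher and 79 to 104 lower. With only unstimulated replicates 1 and 2 as controls 84 were called, 60 of them lower, and with only replicates 3 and 4 130. Lower calls made up 71.4% to 83.2% of calls under each of these settings with the threshold of 1.5. With no fold threshold, leaving out unstimulated replicate 3 gave 187 genes higher and 176 lower. The count against the mean of the 9 other cytokines, 294, was 664 with all genes of any count, 572 at a fold threshold of 1 and 1256 with none, and 253 to 303 without 1 IL-13 library. The cause of these changes was not tested beyond the number of genes or samples each setting leaves.

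Over all tested genes, deviations of libraries with the same number correlated at -0.0846 to 0.0647. IL-13 replicate 3 correlated best with unstimulated replicate 1 (0.143). A correlation over all genes cannot exclude a shared split in some of them. IL13RA2, HGF and TFPI2, picked after their values were seen, were lower in replicates 1 and 2 than in 3 and 4 in both groups. How many genes share this was not tested. A replicate block gave 144 called genes, and 295 against the other cytokines. Without the fold threshold, 178 genes were higher and 267 lower under the block, in place of 146 and 228. Under the block IL13RA2 (adjusted p = 0.0139), ACTA2 (0.00229), CXCL12 (0.0371) and UCHL1 (0.0404) passed, and 4 contractile genes rose in place of 2. With all genes of any count CCL8 (0.0244), CXCL12 (0.00571) and CYP51A1 (0.000601) passed too. Of 86 named genes past the test, all kept their sign under each of the alternatives listed in the methods. Of these, 50 also passed under each that gave a value. Many of the 86 were picked for large changes without overlap between groups, so a kept sign was largely given in advance. Genes that had not passed changed sign. SOCS2 (-0.01) was at 0.00708 with DESeq2's size factors, 0.00683 in the Wald test, 0.058 with the block, -0.34 to 0.53 without 1 library and 1.18 with unstimulated replicates 1 and 2 alone. TSLP (-0.07) was at 0.035 with the block, -0.30 to 0.31 without 1 library and 0.44 with replicates 1 and 2. CCL7 ran from -0.64 to 0.51 without 1 library and was at 1.23 with replicates 1 and 2, KRT18 ran from -0.50 to 0.18, and PTPN2 (-0.063 to 0.24) and CD68 (-1.48 to 0.40) were at -0.24 and 0.12 with only replicates 3 and 4, where CCL2 was at -0.044.

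Depth limits low genes: 3 counts are 1.47 to 2.66 CPM in these libraries, so genes such as SOCS1, CISH and STAT6 rest on few reads.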
